A study of Mus musculus with 12 samples.

Results

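The core of the mammalian circadian clock is described here through 8 genes: the activators Arntl, Clock and Npas2, the period genes Per1, Per2 and Per3, and the cryptochromes Cry1 and Cry2. They were found by gene name and Entrez number among 26228 named genes, and 17 of the 61657 spots that are not controls belong to them. RNA of female B6C3F1/Nctr mice was measured on 12 Agilent 1-colour arrays with Cy3 label, in 4 groups of 3 arrays. The groups are lung with acrylamide, a small reactive amide, at 0.7 mM, untreated lung, liver with acrylamide at 0.7 mM, and untreated liver, and controls were matched for age per the design text. The sources used here do not give the age itself, the route and length of exposure or the hour at which tissue was collected. Arrays are named by tissue, treatment and the number in the title. The labels do not say whether each array of a group stands for an animal of its own, so errors and p-values describe only how far these arrays differ, and that spread may be technical. The 8 genes are a family by function, but they were chosen by someone who knew the differences between acrylamide and control arrays among clock genes, so those differences are given as a description and support nothing by themselves.

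The clock is a feedback loop that runs in nearly every cell. BMAL1, the product of Arntl, pairs with CLOCK or its relative NPAS2, binds E-box sequences and activates the period and cryptochrome genes, whose proteins then repress that pair. REV-ERB repressors, encoded by Nr1d1 and Nr1d2, act on ROR response elements of Arntl, Npas2, Clock and Cry1, and DBP, encoded by the output gene Dbp, activates through D-box sequences. In mouse liver and lung, transcripts of Arntl and Npas2 peak at hours when those of Per3 and Dbp are low. The levels of these genes therefore depend on the hour of sampling.

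Promoters of 7 members, in 11 entries running from 250 bases before to 50 after a start site, were listed in RefSeq's GRCm38.p6 table, and Per2 had no entry. They were searched on both strands for the E-box CACGTG, the D-box TTATGTAA and TAGGTCA, the core of a ROR response element. The 4 entries with a match are shown, and capitals mark the matches. They were picked by the match and not by the levels of their genes.
Arntl, chr7:113207261-113207560, plus strand: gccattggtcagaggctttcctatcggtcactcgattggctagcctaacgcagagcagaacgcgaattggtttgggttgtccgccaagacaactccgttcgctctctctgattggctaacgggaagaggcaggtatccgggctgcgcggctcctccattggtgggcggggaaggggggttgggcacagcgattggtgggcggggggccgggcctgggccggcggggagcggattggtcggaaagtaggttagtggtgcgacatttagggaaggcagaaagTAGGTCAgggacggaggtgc
Per1, chr11:69098699-69098998, plus strand: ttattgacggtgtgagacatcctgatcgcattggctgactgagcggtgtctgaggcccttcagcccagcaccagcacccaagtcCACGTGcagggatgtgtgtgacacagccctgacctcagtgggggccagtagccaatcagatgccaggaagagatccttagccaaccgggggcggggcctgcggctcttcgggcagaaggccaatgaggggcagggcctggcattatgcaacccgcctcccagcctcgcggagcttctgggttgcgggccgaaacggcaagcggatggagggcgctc
Per3, chr4:151044616-151044915, minus strand: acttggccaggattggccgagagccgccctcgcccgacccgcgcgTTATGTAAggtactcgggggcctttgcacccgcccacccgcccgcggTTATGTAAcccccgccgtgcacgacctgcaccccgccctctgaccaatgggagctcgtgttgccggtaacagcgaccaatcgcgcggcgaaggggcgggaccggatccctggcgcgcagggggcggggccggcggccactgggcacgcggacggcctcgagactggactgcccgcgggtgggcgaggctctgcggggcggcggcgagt
Cry1, chr10:85185005-85185304, minus strand: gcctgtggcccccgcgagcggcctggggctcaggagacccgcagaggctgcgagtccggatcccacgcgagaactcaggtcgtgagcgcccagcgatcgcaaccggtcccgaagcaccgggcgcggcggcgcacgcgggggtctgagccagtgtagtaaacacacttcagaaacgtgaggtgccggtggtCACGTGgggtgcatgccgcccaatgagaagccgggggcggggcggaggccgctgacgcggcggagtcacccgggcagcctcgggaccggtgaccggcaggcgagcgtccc
The Per3 promoter held the D-box at 205 to 198 and at 158 to 151 bases before the start site. Of all 32851 promoter entries, 0.938% held a D-box and 7 held more than 1. The Per1 promoter held an E-box 166 to 161 bases before its start, and the Cry1 promoter 60 to 55 bases before its start, where 7.15% of all entries held one. Arntl held TAGGTCA 30 to 36 bases after the start in 1 of its entries, against 2.61% of all entries. A match describes letters in this window and not a binding site, and the entries of Clock, Npas2 and Cry2 held none of these motifs.

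The files hold 1 linear Cy3 intensity per spot, and levels below are scaled intensities, in which the 75th percentile of each array is set to 1000. That percentile was 839 to 1376 before scaling on the 6 lung arrays and 294.5 to 621.5 on the 6 liver arrays. The tissue entry of the labels says liver for every array, while titles and source names say lung for 6. All 8 alveolar type 2 markers were higher on the untreated lung arrays, with a median difference of 8.83 log2 units, and all 8 hepatocyte markers were lower, with a median of -9.41, with a call for each in limma, so the titles were followed. The spots of a gene were represented by the one with the highest mean over the 12 arrays. A spot counted as above background when it was brighter than 95% of the negative control spots on the same array. Liver acrylamide 30 stood apart, with a background limit of 16.8 in raw intensity against 2.35 to 4.45 on the other 11 arrays.

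**Figure D1:**
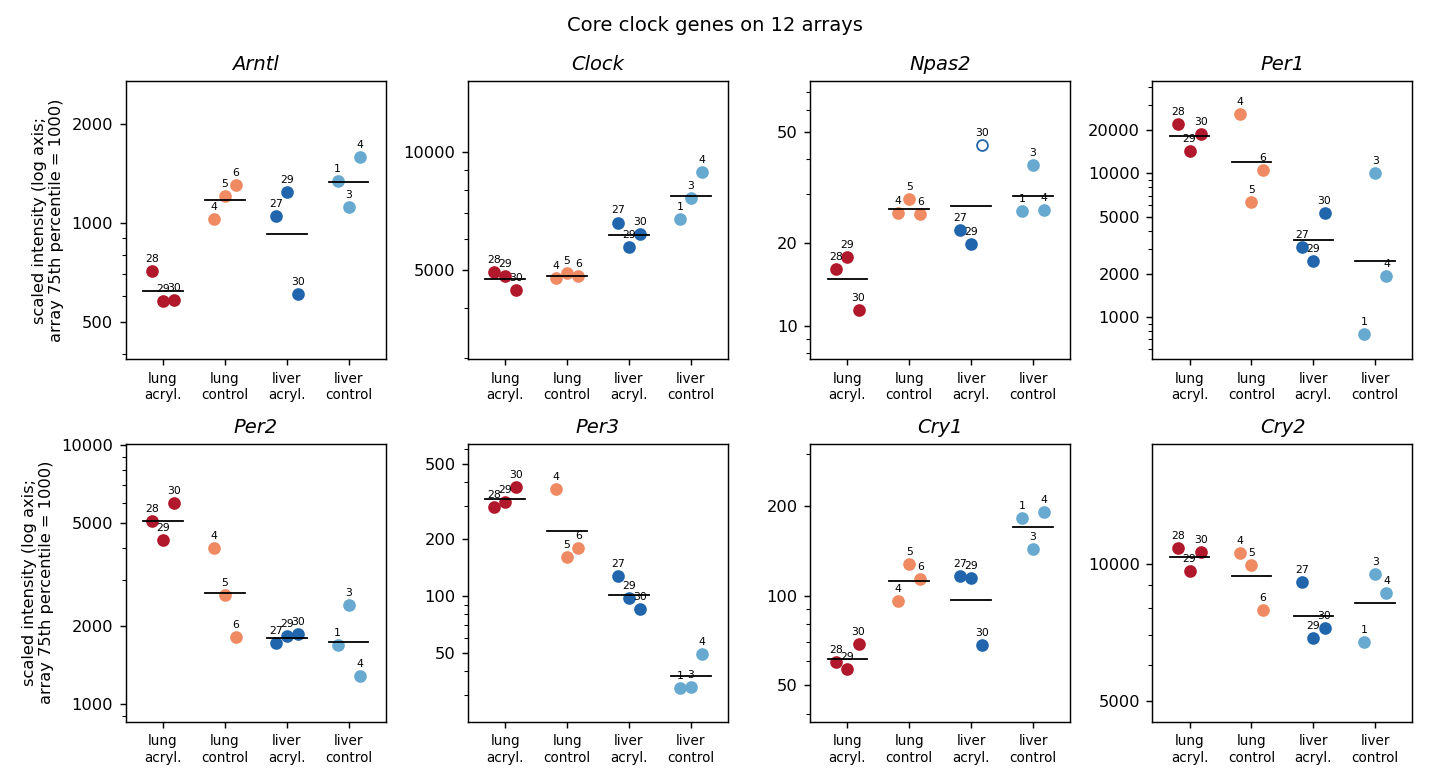
Scaled intensity of the 8 genes on each array (log axis, 75th percentile of the array set to 1000), by group; points carry the array number, lines are geometric means of 3 arrays, and the open point is not above background. The lung acrylamide points of Arntl, Npas2 and Cry1 lie below all control lung points, and the liver acrylamide points of Per3 lie above all control liver points.

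Arntl was lower on the acrylamide arrays. It stood at 717, 579.6 and 584 on lung acrylamide 28, 29 and 30, against 1032, 1208 and 1306 on lung controls 4, 5 and 6. The groups did not overlap, and the difference was -0.92 ± 0.14 log2 units (SE, n = 3 per group). In liver Arntl stood at 1047, 1242 and 610.2 on acrylamide 27, 29 and 30, against 1339.6, 1116 and 1589 on controls 1, 3 and 4. Here acrylamide 29 exceeded control 3, and the difference was -0.53 ± 0.30 log2 units (SE, n = 3 per group). It was -0.23 without liver acrylamide 30, the lowest of the 6 livers. The other 2 spots of Arntl, both dimmer, gave -1.06 and -0.83 in liver and -0.83 and -1.08 in lung, without overlap of the groups in either tissue.

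Npas2, which can take the place of Clock, was the dimmest member. In lung it stood at 16.1, 17.7 and 11.4 on acrylamide 28, 29 and 30, against 25.6, 28.6 and 25.4 on controls 4, 5 and 6. Every acrylamide lung lay below every control lung, by -0.84 ± 0.18 log2 units between the means (SE, n = 3 per group), and all 6 lung arrays were above background. In liver the values were 22.2, 19.8 and 44.9 on acrylamide 27, 29 and 30, against 25.9, 38.1 and 26.1 on controls 1, 3 and 4. The value on liver acrylamide 30 was 0.789 times the background limit of that array and so only bounds the level. The liver difference was -0.13 ± 0.35 log2 units with that array and -0.50 ± 0.22 without it (SE).

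Clock, the partner of BMAL1, differed little in lung. It stood at 4942, 4837 and 4462 on lung acrylamide 28, 29 and 30, against 4772, 4925 and 4850.5 on lung controls 4, 5 and 6. The lung difference was -0.03 log2 units, with a 95% interval of -0.25 to 0.19. In liver the values were 6619, 5722 and 6188 on acrylamide 27, 29 and 30, against 6737, 7632 and 8919 on controls 1, 3 and 4. The liver groups did not overlap, at -0.32 ± 0.16 log2 units (SE, n = 3 per group). Of the 3 other Clock spots, 2 were also lower in both tissues, by -0.19 and -0.50 in liver and -0.18 and -0.09 in lung. The groups of spot 2 overlapped in liver but not in lung, and those of spot 3 overlapped in lung but not in liver. Spot 4, above background on 10 of 12 arrays, went the other way, at 0.61 in liver and 0.18 in lung.

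By the spot used, the mean log2 level of each period gene was higher on acrylamide arrays in each tissue. In liver, spot 2 of Per1 and spot 2 of Per2 went the other way, at -0.12 and -0.05. Per1 spread most widely among controls. Per3 stood at 128, 97.4 and 85.1 on liver acrylamide 27, 29 and 30, against 32.5, 33.1 and 49.6 on liver controls 1, 3 and 4. All acrylamide livers lay above all control livers, and the difference was 1.44 ± 0.24 log2 units (SE, n = 3 per group), or 2.71-fold. On liver acrylamide 30 the Per3 spot was 1.49 times the background limit, and without that array the difference was 1.57 log2 units. Spot 2 of Per3, matched to another transcript, gave 1.08 in liver, where it was above background on 2 of 6 arrays. In lung, Per3 stood at 294, 314 and 376 on acrylamide 28, 29 and 30, against 366, 162 and 180.0 on controls 4, 5 and 6. Control 4 lay among the acrylamide lungs, and the difference was 0.57 ± 0.33 log2 units, or 0.94 ± 0.14 without control 4 and 0.35 ± 0.33 without control 5 (SE). Spot 2 gave 0.89 in lung without overlap of the groups.

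Transcripts of lung cell markers differed between liver arrays. Sftpc codes for surfactant protein C, made by alveolar type 2 cells, and was 1.60% of its mean over control lungs on liver acrylamide 27, 0.165% on acrylamide 29 and 0.00535% on acrylamide 30, where it was not above background. On liver controls 1, 3 and 4 it was 0.00148%, 0.00456% and 0.0037%. The club cell gene Scgb1a1 gave 1.71%, 0.824% and 0.0223% on acrylamide 27, 29 and 30, against 0.0252%, 0.0355% and 0.0485% on controls 1, 3 and 4. A share of 1.71% of the mean Per3 level of control lungs, 236, is 4.04, beside the 128 measured on liver acrylamide 27. Whether lung tissue contributed to the liver values was not tested. Of the 7 tested alveolar type 2 markers 5 were higher in acrylamide livers, and all 4 club markers were higher. Sftpb, the marker not tested, stood at 721 and 150.5 on acrylamide 27 and 29 and was not above background on the other 4 livers. The summed alveolar type 2 level ran from 57507 to 72694 over acrylamide livers, against 57764 to 67472 over control livers, and the club level from 179146 to 198992, against 144493 to 169007. These sums are mostly Abca3 and Cyp2f2, which had bright signal on all 6 liver arrays, and so say little about the lung genes above.

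Per2 stood at 5076, 4309 and 5962.5 on lung acrylamide 28, 29 and 30, against 4013, 2629.7 and 1817 on lung controls 4, 5 and 6. The groups did not overlap, and the difference was 0.92 ± 0.30 log2 units (SE, n = 3 per group). Spot 2 of Per2 gave 0.38 in lung, with overlap. In liver the values were 1717, 1824 and 1865 on acrylamide 27, 29 and 30, against 1688, 2404 and 1278 on controls 1, 3 and 4. The control livers spread on both sides of the acrylamide livers, and the difference was 0.06 log2 units, with a 95% interval of -0.54 to 0.65. Spot 2 gave -0.05 in liver.

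Per1, the period gene that also responds acutely to hormones and other signals, varied most among the controls. In liver it stood at 3081.5, 2477 and 5312 on acrylamide 27, 29 and 30, against 767, 10056 and 1936 on controls 1, 3 and 4. The highest control liver was 13.1 times the lowest, and the difference of log2 means was 0.48 ± 0.92 (SE, n = 3 per group). It was 1.495 without control 3 and -0.36 without control 1, and the mean scaled intensity, 3624 on acrylamide livers and 4253 on control livers, went the other way. In lung Per1 stood at 22017, 14426.5 and 18927 on acrylamide 28, 29 and 30, against 25875, 6364 and 10519 on controls 4, 5 and 6. Lung control 4 was the highest of the 6, and the difference was 0.60 ± 0.51 log2 units (SE), or 1.15 without that array and 0.14 without control 5. Spot 2 of Per1, much dimmer, gave -0.12 in liver and 0.10 in lung.

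The cryptochromes, which code for the main repressors of the BMAL1 pair, parted. Cry1 stood at 59.5, 56.4 and 68.7 on lung acrylamide 28, 29 and 30, against 95.8, 128 and 113 on lung controls 4, 5 and 6. It stood at 116, 114 and 68.1 on liver acrylamide 27, 29 and 30, against 182, 143 and 191 on liver controls 1, 3 and 4. The groups did not overlap in either tissue, at -0.86 ± 0.15 log2 units in lung and -0.82 ± 0.26 in liver (SE, n = 3 per group). On liver acrylamide 30 Cry1 was 1.196 times the background limit, and without that array the liver difference was -0.57. Spot 2 of Cry1 gave -0.53 in lung and -0.65 in liver, with overlap in each.

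Cry2 had bright signal on every array. It stood at 10840 to 9677 over the acrylamide lungs, against 10561 to 7920 over the control lungs, and at 9155 to 6871 over the acrylamide livers, against 9526 to 6745 over the control livers. The groups overlapped in each tissue, with differences of 0.14 log2 units in lung (95% interval -0.20 to 0.48) and -0.10 in liver (-0.58 to 0.39).

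**Figure D2:**
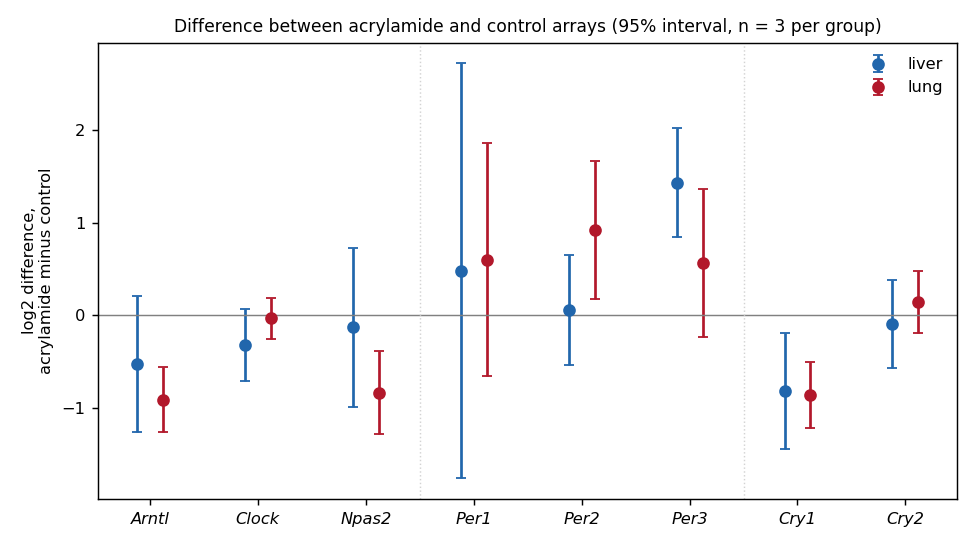
Log2 difference between the means of acrylamide and control arrays for the 8 genes in liver and lung (points), with 95% intervals from limma (n = 3 per group). The points of Arntl, Npas2 and Cry1 lie below 0 and those of the period genes above 0 in both tissues, by the spot used. Among these genes, the interval includes 0 for Arntl, Npas2, Per1 and Per2 in liver and for Per1 and Per3 in lung. The intervals of Per1 are the widest.

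Set together by the spot used for each gene, 3 of 8 members had liver groups that did not overlap, where 12.2% of all genes did so. These were Per3 above and Clock and Cry1 below. In lung 4 of 8 did, Per2 above and Arntl, Npas2 and Cry1 below, where 10.9% of all genes did so. The median absolute difference was 0.40 log2 units over the members and 0.19 over all 21076 genes tested in liver, and 0.72 and 0.12 over the members and all 22226 genes in lung. In 7 of the 8 the sign was the same in both tissues, against 56.2% of 20312 genes tested in both, Cry2 being the exception. The small differences of Clock in lung, and of Npas2, Per2 and Cry2 in liver, turned sign when single arrays were left out. Per1 turned sign in liver without control 1, and all 8 kept their sign under quantile and median scaling. Because the genes were chosen with these contrasts known, nothing is read from these shares.

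No member passed the test over all genes. Limma called 0 of 8 members and 0% of genes at an adjusted p under 0.05 in each tissue, while 1289 genes in liver and 1101 in lung had an unadjusted p under 0.05. The lowest adjusted p among the members was 0.642 in liver, that of Per3, and 0.868 in lung, that of Arntl. The titles begin with a numeric code that differs between the tissues and within them, read here as slide and row on the slide, which the labels do not spell out. Within each tissue the row so read holds arrays of both treatments. In liver, within row 1, with acrylamide 27 and 30 and controls 1 and 3, Per3 differed by 1.67 and Cry1 by -0.86 log2 units, and within row 2, with 1 array per group, by 0.97 and -0.74. In lung, Arntl differed by -0.90 and -1.002, Npas2 by -1.08 and -0.52, Cry1 by -1.0004 and -0.89 and Per2 by 1.06 and 0.67 within rows 1 and 2. Per1 in lung differed by 1.68 within row 1 and by -0.19 within row 2, and Per3 by 1.04 and 0.29. Each lung row holds a single array of 1 of the groups.

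**Figure D3:**
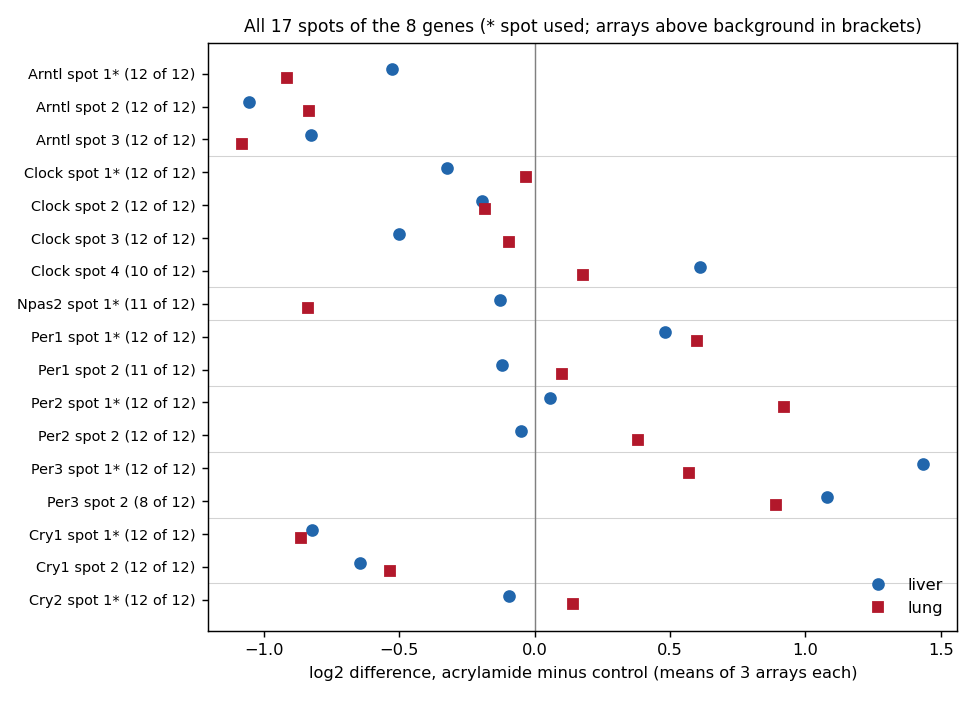
Log2 difference between acrylamide and control means for all 17 spots of the 8 genes in liver (circles) and lung (squares), with the number of arrays above background in brackets and an asterisk for the spot used. All 3 Arntl spots and both Cry1 spots lie below 0 in each tissue, both Per3 spots lie above 0, and Clock spot 4 lies opposite the other Clock spots.

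The difference between the tissues' acrylamide effects was tested over all 12 arrays, and 0 of 8 members and 0% of all genes were called. Per2 had a lung effect 0.86 ± 0.42 log2 units above that in liver, and Per3 one that lay -0.87 ± 0.44 from it (SE, limma adjusted p = 0.994 each). A difference in response between the tissues was therefore not shown for any member, with 95% intervals of -0.07 to 1.80 for Per2 and -1.84 to 0.10 for Per3.

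The rest of the clock pathway was read from a list of 25 other genes chosen with earlier results known. In liver 23 were tested, 12 higher and 11 lower, and none was called, but 6 had all acrylamide arrays above all controls and 1 all below, where 5.43% and 6.78% of all genes did. The largest differences were those of Dbp (2.34 ± 0.26 log2 units, SE), Ciart, a repressor of the BMAL1 pair (1.83 ± 0.51), and Noct, a rhythmic phosphatase gene (1.11 ± 0.61). Ciart was above background on acrylamide livers 27 and 29 alone, at 14.6 and 59.2, and on control liver 3 alone, at 9.42, so its liver difference rests on spots near or under the background limit. Noct overlapped between the liver groups. In lung 24 were tested, 15 higher and 9 lower, with 4 whose acrylamide arrays lay above and 4 below all controls, where 4.11% and 6.8% of all genes did. The largest were Dbp (1.56 ± 0.43), Nr1d1 (1.21 ± 0.22) and Nr1d2 (0.99 ± 0.26), the last of these the partner repressor of Nr1d1. Nr1d1, the repressor of Arntl, stood at 573, 557 and 548 on acrylamide 28, 29 and 30 in lung, against 339, 218 and 191 on controls 4, 5 and 6. In liver, named after its values were seen, it stood at 758, 655 and 832 on acrylamide 27, 29 and 30, against 622, 616 and 229 on controls 1, 3 and 4, so the groups did not overlap in either tissue.

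Among the genes compared, Dbp was also the one whose profile was most like that of Per3. Likeness was Pearson's r over the 12 arrays after the mean of each tissue was subtracted. Of 15796 genes above background on all arrays, 13519 were compared with each member, passing over clone names and predicted genes. Likeness is a description in which treatment groups, slide rows and scaling are shared. For Per3 the closest genes were Dbp (r = 0.947) and Idh3b (0.900), a subunit gene of mitochondrial isocitrate dehydrogenase. For Arntl they were Cry1 (0.931) and Fzd7, a Wnt receptor gene (0.873), and for Cry1 they were Ppp1r3c, a glycogen targeting subunit gene (0.932), and Arntl. For Per1 they were Ppp1r3g, of the same subunit family (0.939), and the transcription factor gene Cebpb (0.911). Per2 was closest to Mtmr7 (0.886) and the heat shock gene Hspa1b (0.885). Clock was closest to Phldb3 (0.926) and Net1 (0.921), and Cry2 to Otud3 (0.864) and Zfp7 (0.859). Npas2 was not above background on all arrays and was left out.

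**Figure D4:**
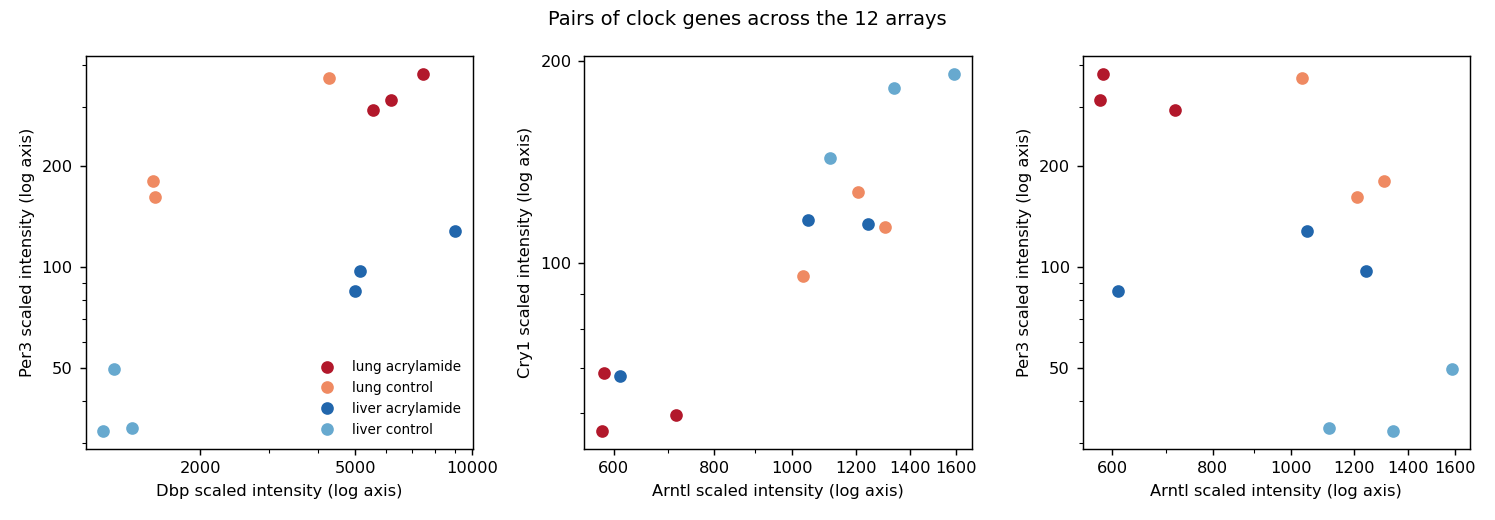
Scaled intensity of Per3 against Dbp, Cry1 against Arntl and Per3 against Arntl on the 12 arrays (log axes), coloured by group. Lung control 4, at 4288 for Dbp and 366 for Per3, lies near the acrylamide lungs, and liver acrylamide 30, at 610.2 for Arntl and 68.1 for Cry1, lies near the acrylamide lungs in the middle panel.

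Dbp, set beside Per3, stood at 9040.5, 5156 and 4999.9 on liver acrylamide 27, 29 and 30, against 1125, 1332 and 1199 on liver controls 1, 3 and 4. In lung it stood at 5558, 6188.5 and 7466 on acrylamide 28, 29 and 30, against 4288, 1530.3 and 1514 on controls 4, 5 and 6. Lung control 4 was thus the highest control for Dbp, Per1, Per2 and Per3 and the lowest for Arntl and Cry1. The numbers 4, 29 and 30 occur in the titles of both tissues, and whether a number marks 1 animal is not given. Liver control 4 was likewise the highest control liver for Per3, but it was the lowest for Per2 and the highest for Arntl and Cry1, where lung control 4 stood at the other end.

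The levels of the clock genes in the 2 tissues were compared in the untreated arrays, a contrast on which the genes were not chosen. They were compared again in the acrylamide arrays. Those arrays hold the acrylamide differences that were known when the genes were chosen, so calls on them are given as a description. All lung arrays share 1 such slide number and all liver arrays another, so the slide cannot be told apart from the tissue. On untreated arrays Per3 was higher in lung, by 2.55 ± 0.35 log2 units (SE, n = 3 per group, limma adjusted p = 0.000681), or 5.84-fold. Clock was lower in lung, with a difference of -0.67 ± 0.15 (adjusted p = 0.00599), as was Cry1, at -0.62 ± 0.18 (adjusted p = 0.0198). These 3 of 8 were called, 1 higher and 2 lower, where 74.4% of all genes were called, 32% higher and 42.4% lower, so most genes of any kind differ here. Per1 stood 2.29 ± 0.99 higher in lung (adjusted p = 0.075) and Per2 0.63 ± 0.35 (adjusted p = 0.151), with their wide spread among controls, and Arntl, Npas2 and Cry2 differed by -0.18, -0.16 and 0.19 (adjusted p = 0.394, 0.477 and 0.392).

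On acrylamide arrays 5 of 8 were called, 4 higher and 1 lower, where 72.9% of all genes were called, 31.3% higher and 41.5% lower. By the spot used, all 3 period genes were higher in lung. The differences were 2.404 ± 0.33 for Per1, 1.49 ± 0.15 for Per2 and 1.68 ± 0.19 log2 units for Per3 (SE, n = 3 per group, limma adjusted p = 0.00105, 0.000272 and 0.000505). Spot 2 was lower in lung for Per1, at -1.19, and for Per2, at -2.81. Spot 2 of Per3 was also higher in lung, but was not above background on liver acrylamide 29 and 30. The mean over the spots gave 0.61 for Per1 and -0.66 for Per2, each called. Cry2 was higher by 0.43 ± 0.15 (adjusted p = 0.0387) and Clock lower, at -0.38 ± 0.11 (adjusted p = 0.0224). Cry1, at -0.66 ± 0.24 (adjusted p = 0.0507), Npas2 (-0.87 ± 0.36, adjusted p = 0.0745) and Arntl (-0.57 ± 0.29, adjusted p = 0.123) were not called. The calls of Clock and Cry2 were each kept in 9 of 15 other settings. Clock was lost with quantile scaling (-0.09), median scaling (-0.20), the mean of spots (-0.26) and without liver acrylamide 27, lung acrylamide 29 or lung acrylamide 30. Cry2 was lost with the title number as a replicate block and without liver acrylamide 29, liver acrylamide 30 or any of the 3 lung acrylamide arrays. Without liver acrylamide 30, Cry1 (-0.91) and Arntl (-0.87) were called. Of the period genes, Per3 was called in both contrasts, and a change of the tissue difference with acrylamide was not shown for any member by the test over all 12 arrays above.

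Spots of the same gene did not always give the same tissue difference. Spot 2 of Per2 gave -3.24 log2 units in untreated lung minus liver, where the brighter spot gave 0.63, and the mean over the spots gave -1.30 (limma adjusted p = 0.000639). Spot 2 of Per1 gave -1.41, against 2.29 for the brighter spot, and the mean over both was 0.44. The spots of Clock gave -0.67, 0.35, -0.15 and -0.83, and their mean, at -0.32, was still called (limma adjusted p = 0.0466). On acrylamide arrays the spots of Clock gave -0.38, 0.36, 0.26 and -1.26, so spots 2 and 3 lay opposite the spot used. Both spots of Cry1 were lower in untreated lung, at -0.62 and -1.32. Spot 2 of Per3 was above background on 1 of 3 untreated livers and on all untreated lungs, so no size is given for it. The median over all genes was -0.27 log2 units between untreated lung and liver and 0.02 with quantile scaling. Per3 and Clock were called in all 14 other settings on untreated arrays, and Cry1 in 10 of them, being lost with median scaling (-0.41) and without liver control 1, liver control 4 or lung control 4.

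**Figure D5:**
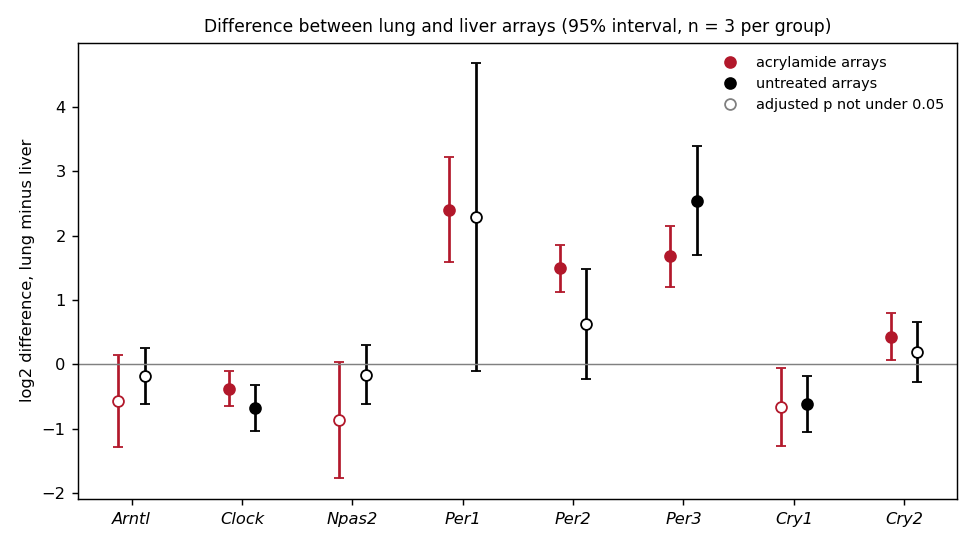
Log2 difference between lung and liver for the 8 genes on acrylamide arrays (red) and untreated arrays (black), with 95% intervals from limma (n = 3 per group); open points were not called. Per3 lies at 1.68 and 2.55 and Clock at -0.38 and -0.67, called in each. The call of Clock on acrylamide arrays was kept in 9 of 15 other settings. Points show the spot used. On acrylamide arrays Clock spots 2 and 3 were higher in lung. Spot 2 of Per1 and spot 2 of Per2 were lower in lung, at -1.19 and -2.81 on acrylamide arrays and -1.41 and -3.24 on untreated arrays.

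Markers of other cell types also differed between acrylamide and control arrays, none of them called. Of 8 macrophage markers 7 were higher in acrylamide livers and 7 in acrylamide lungs. Their summed scaled level ran from 48251 to 52629 over acrylamide livers, against 34481 to 44639 over control livers. It ran from 57128 to 69380 over acrylamide lungs, against 40774 to 62276 over control lungs, and each marker was above background on at least 1 array of each group. Of 8 B and T cell markers 7 were lower in acrylamide livers, summing to 2402 to 3102, against 2493 to 3801 in control livers, and 6 were lower in acrylamide lungs, summing to 9957 to 12168, against 7472 to 16790 in control lungs. In acrylamide lungs all 8 hepatocyte markers were higher, summing to 12398 to 27687, against 12289 to 25835 in control lungs, while all 8 alveolar type 2 and all 4 club markers were lower. Of 5 endothelial markers 4 were lower in acrylamide lungs, summing to 173660 to 203691, against 192054 to 233224 in control lungs. For 2 of the 5, all acrylamide lungs lay below all control lungs, where 6.8% of all genes did so. In acrylamide livers 7 of 8 hepatocyte and 2 of 5 endothelial markers were lower. All acrylamide livers lay above all control livers for 2 of the 5 endothelial and 3 of the 8 macrophage markers, where 5.43% of all genes did so. The part of these cells in the clock values was not tested, and fewer cells of a type and less RNA per cell cannot be told apart in bulk tissue.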

How the data were processed

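Cy3 intensity was measured on 12 arrays, and the deposited files give 1 linear intensity per spot for 62976 spots, and the submitters' processing notes name Agilent Feature Extraction 10.7. It is not stated if background had been subtracted. In the authors' series matrix each array's intensities are multiplied by 1 factor, as checked on the files. After 1319 control spots were left out, log2 intensity was centred on the 75th percentile of each array. Spots were named through the Entrez number (38054), the accession (715) or the file (2242), with 20646 unnamed, using RefSeq's GRCm38.p6 table for names only. A gene was tested when its spot exceeded the 95th percentile of 308 negative control spots on at least 3 arrays of the fit. Groups came from the titles. Acrylamide minus control was fitted within each tissue, and lung minus liver within each treatment, with limma 3.58.1 (lmFit, eBayes) in R 4.3.3, with Benjamini-Hochberg adjustment over all genes. The fits were run on simulated arrays with planted differences and independent noise, to check that the sizes of the differences were recovered. No detection rate for groups of 3 arrays is given here. The members, lists, tests and naming rule (all members, the 3 other clock genes with the largest difference per tissue, and 2 genes of closest profile per member, passing over clone names) were chosen with earlier results of these data known. Alternatives were other scaling, the series matrix, other background filters, the mean of spots, arrayWeights, an intensity trend, the slide row as read from the title codes, 1 fit of all arrays, a replicate block and leaving out each array. The number of arrays limits the precision. Groups of 3 arrays were too small for a search for outlying arrays.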

Additional observations from a re-analysis of the deposited data

How the results depend on the processing

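Counts of members called between acrylamide and control stayed at 0 under all 18 other settings in liver, 19 in lung and 21 for the difference between them, while the genes called ran up to 8, 0 and 139. The 139 came with arrayWeights, and 136 without liver acrylamide 30. Arntl, Cry1 and Per3 kept their direction in all 19 other settings in each tissue, with ranges of -0.80 to -0.23, -0.95 to -0.57 and 0.97 to 1.67 log2 units in liver. In untreated lung against liver the members called were 5 with quantile scaling, against 3, and 2 to 4 when 1 array was left out. On acrylamide arrays they were 3 to 6 when 1 array was left out, against 5, being 3 without lung acrylamide 29 or 30. They were 7 with arrayWeights, with which Arntl and Cry1 gained a call, as both did with the mean of spots and without liver acrylamide 30, and Cry1 did with the filter for signal on every array. The untreated difference turned for Npas2 with quantile scaling (0.21), median scaling (0.047) and without liver control 3 (0.025, in a range of -0.252 to 0.025 when 1 array was left out), for Arntl with median scaling (0.023), and for Per2 with the mean of spots (-1.30). On acrylamide arrays the difference of Per2 turned with the mean of spots (-0.66) and was called as lower in lung. Cry1 lost its untreated call with median scaling and without liver control 1, liver control 4 or lung control 4 (-0.41, -0.57, -0.53 and -0.51). The causes were not tested, other than the spot that the mean of spots adds. With the title number as a replicate block, 0 members were called between acrylamide and control and 4 on acrylamide arrays, where Cry2 lost its call (adjusted p = 0.0547, limma). Deviations of arrays with the same number correlated at -0.061, -0.025 and -0.251 for 4, 29 and 30. Arrays with different numbers were not correlated for comparison, so these values cannot tell whether a number marks 1 animal. The main fits did not take the numbers as pairs.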
